A study of Bos taurus with 11 samples.

Results

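The genes described here are 9 members of the BCL2 family, the proteins that decide at the mitochondrion whether a cell starts apoptosis. They were chosen by gene symbol from a list written for this work, as all array probes named for BCL2, BCL2L1, BCL2A1 or MCL1 (pro-survival members) or for BAX, BAK1, BAD, BID or BCL2L11 (pro-death members). This gave 19 of 43653 distinct probes, 9 for the pro-survival and 10 for the pro-death genes. The study measured total RNA of peripheral blood mononuclear cells (PBMCs, the lymphocytes and monocytes of blood) from female cattle on 1-colour bovine oligonucleotide arrays. Ladakhi cattle, native to a high-altitude region, gave 5 arrays, and Sahiwal cattle of the low-altitude plains, whose labels add the word basal, gave 6 arrays. Ages are not given in the sources used here, and no treatment is named. The labels number the arrays of a breed without saying that each holds a different animal, so p-values measure the spread between these arrays, which may be technical.

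Pro-survival members such as BCL2, BCL-XL (the main product of BCL2L1), MCL1 and A1 (BCL2A1) bind and restrain the pro-death members. BAX and BAK1 form the pores that release cytochrome c from mitochondria, and the BH3-only proteins BAD, BID and BIM (BCL2L11) act upstream of them, by occupying the pro-survival members or by activating the pore formers. In blood, resting lymphocytes are known for their need of BCL2 and MCL1, and A1 for its induction by NF-kB in activated lymphocytes and in myeloid cells. MCL1 mRNA and protein are short-lived, and neutrophils and monocytes depend on the protein as well.

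The probes are 60 bases long, and 6 of the 9 genes have several, each read apart here. BCL2, BAX and BCL2L11 have 1 probe each. The sequences below are those that carry the results, printed 5′ to 3′ in the sense of the mRNA from the array files. The files do not say which part of a transcript a probe matches. The first set was taken as coding sequence from reading it in frame, and no stop codon interrupts at least 1 frame of each, apart from the marked one.
BCL2A1 A_73_P208327: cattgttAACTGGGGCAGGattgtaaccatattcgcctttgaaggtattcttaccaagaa
BAK1 A_73_P039561: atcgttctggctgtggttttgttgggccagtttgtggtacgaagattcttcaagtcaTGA
BCL2 A_73_P108956: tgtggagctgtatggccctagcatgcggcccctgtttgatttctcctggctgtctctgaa
BAX A_73_P036793: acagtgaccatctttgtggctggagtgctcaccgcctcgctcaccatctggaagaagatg
MCL1 A_73_P080061: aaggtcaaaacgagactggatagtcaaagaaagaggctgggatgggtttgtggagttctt
Capitals mark the codons of the BH1 signature, a stretch shared by several members of the family, in BCL2A1, and the stop codon in BAK1. On the cattle build HGSC Btau_3.1, as the files give it, these probes lie at chr21:25764163-25764222 (minus strand), chr23:8034339-8034398 (minus), chr24:64012021-64012080 (minus), chr18:55543185-55543244 (plus) and chr3:21667737-21668333 (plus). The MCL1 span in the files is longer than the probe.

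The second set holds the probes that were above background on all 11 arrays, shown by their last 30 bases, because whether they lie in a 3′ UTR was not settled.
MCL1 A_73_104021: gtgggctataaaatgtagtgtgtttcccta
BAK1 A_73_108349: atcttgcacagctgagggattcagaggtca
BAD A_73_115032: tactaaaatgctAATAAAgcccacgtctgt
BAD A_73_P284126: cccaaagttcggtccccttccggtgtgtgc
They lie at chr3:21670966-21671025 (plus), chr23:8033213-8033272 (minus), chr29:44358183-44358242 (minus) and chr29:44358386-44358445 (minus). Capitals mark AATAAA, the usual polyadenylation signal, which 1 of the 19 member probes holds. Over all probes of the array 9.35% hold AATAAA and 3.46% hold it on the other strand, so the match in BAD is a description of 1 probe. Among the 4048 probes that at least 4 Ladakhi and 4 Sahiwal arrays showed well above background, called measured from here on, 20.8% hold it.

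The Ladakhi arrays were much dimmer. The 75th percentile of the signal over the 2705 probes above background on all arrays, which sets the scale used here, was 1173 ± 396 in Ladakhi (SD, n = 5) and 10783 ± 3124 in Sahiwal (SD, n = 6). Spots well above background made up 9.69 to 15.1% of all spots in Ladakhi and 40.0 to 47.0% in Sahiwal. The mean detection limit was therefore a level of -3.61 in Ladakhi and -8.24 in Sahiwal, where a level is log2 of a probe's signal over that 75th percentile. Breed coincides with altitude, labelled high for all Ladakhi and low for all Sahiwal arrays. Breed also coincides with the slide, the scanner (Agilent for Ladakhi, Axon GenePix for Sahiwal) and the version of the extraction software. None of these can be told apart from breed. A difference between breeds therefore means here a difference between the Ladakhi and the Sahiwal arrays, whatever its source. In a blood sample, fewer cells of a type and less RNA per cell cannot be told apart either.

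Most family members were readily seen in Sahiwal and few in Ladakhi. The Ladakhi arrays had 4, 6, 9, 7 and 7 of the 19 member probes above background in order of their number, and the Sahiwal arrays had 16 or 17. On all 6 Sahiwal arrays 15 probes were above background, 7 pro-survival and 8 pro-death. In Ladakhi, 4 probes were measured, those of MCL1, BAK1 and BAD printed above. A further 7 were above background on some Ladakhi arrays, and 8 on none.

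**Figure D1:**
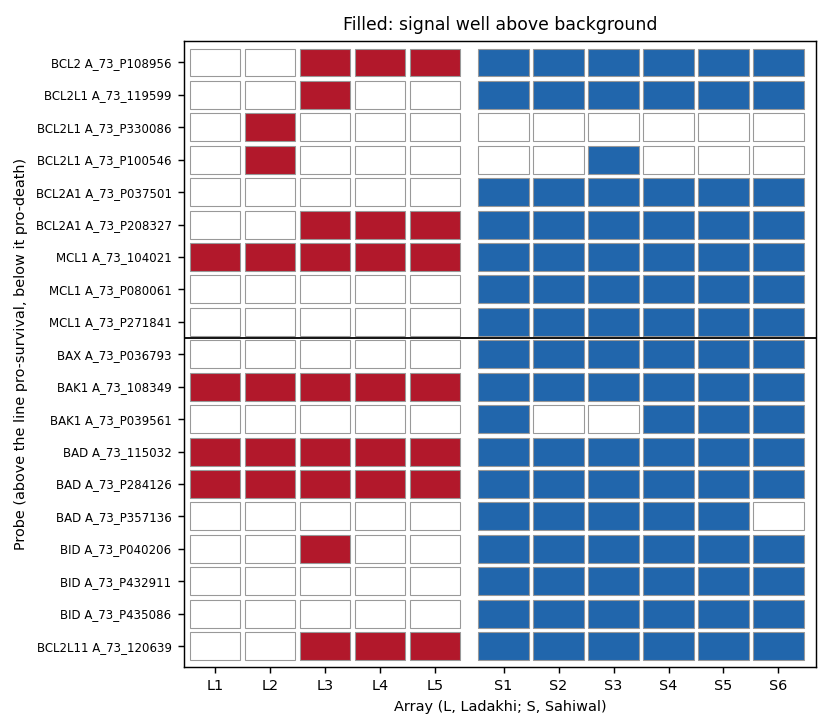
Grid of the 19 member probes (down) on the 11 arrays (across, Ladakhi L1 to L5 left of Sahiwal S1 to S6), where a filled cell is a signal well above background. The 4 measured probes fill all 5 Ladakhi columns, 8 probes fill none of them, and 15 probes fill all 6 Sahiwal columns.

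Which probe of a gene was seen in Ladakhi differed along the gene. For MCL1, the probe nearest the 3′ end was above background on 5 Ladakhi arrays and the other 2 probes, 2692 and 3423 bases upstream in the genome, on none. For BAK1 the counts were 5 for the 3′-most probe and 0 for the probe 1126 bases upstream, which ends at the stop codon printed above. BID had 1 array for its 3′-most probe and 0 for the others. BAD had 5 for both of its 3′ probes, 203 bases apart, and 0 for the probe 11373 bases upstream. The 3 BCL2L1 probes had 1 array each, and BCL2A1 ran the other way, with 0 arrays for the 3′-most probe and 3 for the coding probe with the BH1 signature. In Sahiwal all of the MCL1, BID and BCL2A1 probes were above background on all 6 arrays. The upstream BAK1 and BAD probes were on 4 and 5 Sahiwal arrays, and the upstream BCL2L1 probes on 0 and 1. The upstream probes had Sahiwal means of -3.80 and -4.75 (MCL1), -6.46 and -6.41 (BID), -7.51 (BAK1) and -7.03 (BAD). All of these lie under the Ladakhi detection limit of -3.61, so the counts cannot show whether this pattern differs between breeds.

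Among the probes that could be compared, a pro-survival gene was lower and pro-death genes were higher in Ladakhi. Of the 4 measured member probes 3 differed between breeds at an adjusted p of 0.05, where 32.7% of all 4048 measured probes did. MCL1 was lower, while BAK1 and 1 of the 2 measured BAD probes were higher, and the background shares were 14.5% lower and 18.2% higher. The 4 probes stand for 3 genes, so the count says little against that background. A probe was tested where at least 4 arrays of one breed showed it, and over the 17 member probes tested 9 were called, where 41.8% of 17866 probes were. Of the 8 member probes on no Ladakhi array 6 were called, where 46.7% of such probes were. The fitted difference was negative in 4 of them and positive in 2 (background 15.0% and 31.6%), but it rests on Ladakhi signals not above background, so no direction was read from it, and BCL2A1 A_73_P037501 alone allowed a bound. Among the 5 tested member probes seen on 1 to 3 Ladakhi arrays limma called 0, where 38.8% of such probes were called, and each of the 95% intervals held 0.

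**Figure D2:**
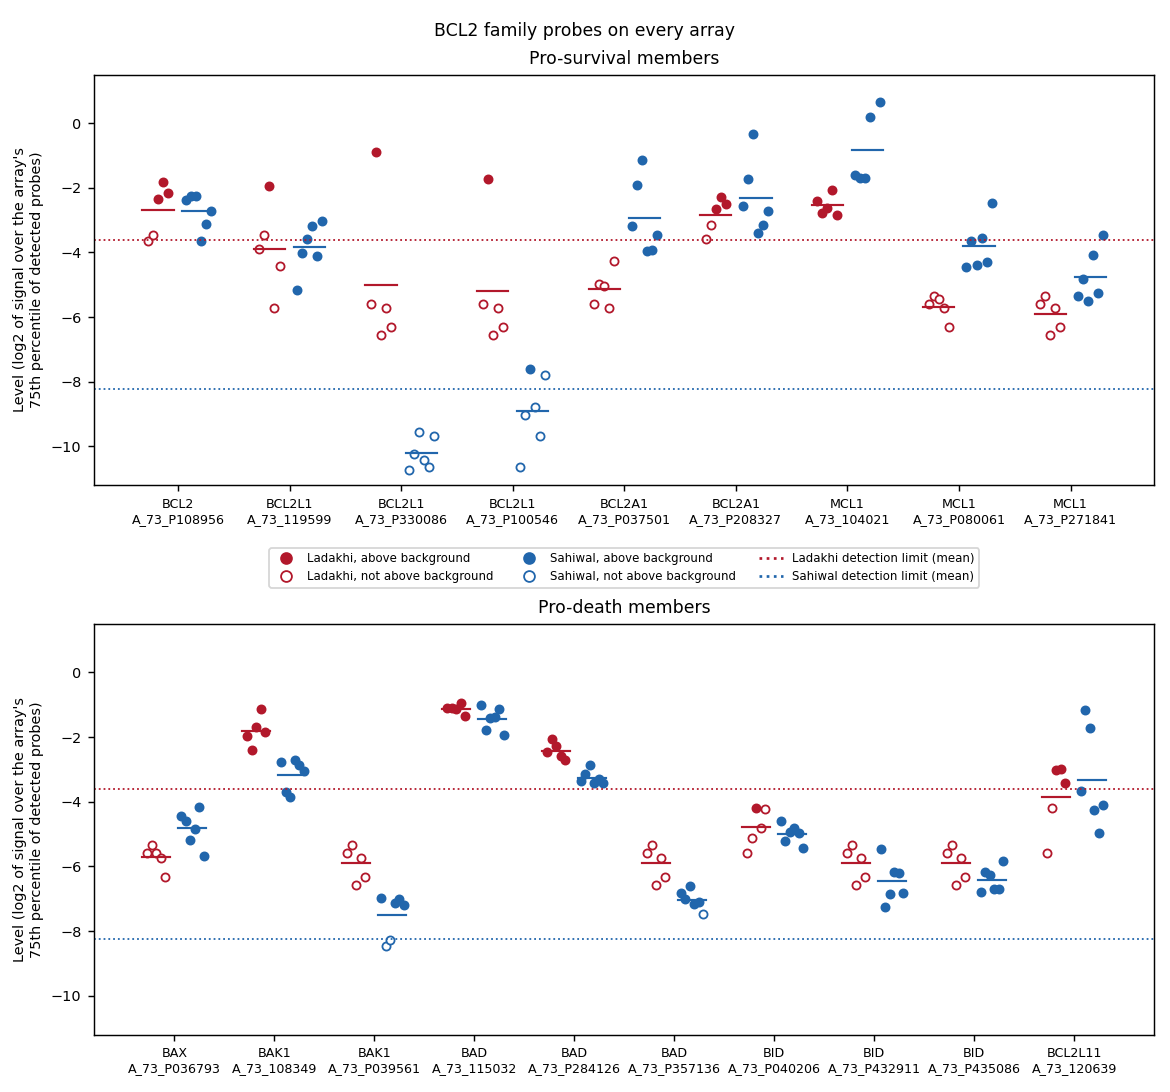
Level of each member probe on every array (log2 of the signal over the array's 75th percentile of detected probes), with Ladakhi arrays left of Sahiwal arrays, pro-survival genes in the upper and pro-death genes in the lower panel. Filled points are above background, open points are not, bars are means and dotted lines the mean detection limits of -3.61 (Ladakhi) and -8.24 (Sahiwal); MCL1 A_73_104021 lies lower, and BAK1 A_73_108349 and BAD A_73_P284126 higher, on every Ladakhi array than on any Sahiwal array.

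MCL1, the short-lived pro-survival member, was lower in Ladakhi PBMCs at its 3′-most probe, A_73_104021. The levels were -2.40, -2.78, -2.64, -2.08 and -2.84 on the 5 Ladakhi arrays, against a lowest of -1.70, a median of -1.60 and a highest of 0.64 on 5 Sahiwal arrays. The spot of Sahiwal array 5 carries an outlier mark and was set missing, so n = 5 there. The breeds did not overlap, as was so for 21.6% of measured probes. The difference was -1.71 on the log2 scale (SE 0.47, 95% interval -2.73 to -0.69, limma adjusted p = 0.012), or 3.28-fold lower in Ladakhi. Each single array could be left out without losing the call (-1.93 to -1.34, adjusted p at most 0.031 by limma).

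In Sahiwal, MCL1 lay between -1.70 and -1.60 on 3 arrays and at 0.19 and 0.64 on arrays 4 and 6. Array 5, set missing, had a signal of 7433 at a scaling signal of 9479, which lies between these groups. Arrays 4 and 6 also carried the neutrophil markers. The summed level of the 8 neutrophil markers was 126% and 167% of the scaling signal on Sahiwal arrays 4 and 6, 5.46, 7.18, 12.001 and 7.35% on Sahiwal arrays 1, 2, 3 and 5, and 8.67 to 29.6% on the Ladakhi arrays. Without arrays 4 and 6, an alternative chosen after the data were seen, the MCL1 difference was -0.88 (limma adjusted p = 0.060). MCL1 was then no longer called, while BAK1 still was, and the fit had only 3 Sahiwal values for MCL1. The part of neutrophil RNA in the MCL1 level was not tested. Under cyclic loess, which shifts the median of all measured probes to 0.42, MCL1 was at -1.29 (limma adjusted p = 0.080) and at -1.70 with that median taken off.

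The other 2 MCL1 probes were not well above background on any Ladakhi array and above it on all 6 Sahiwal arrays. Their Sahiwal signals were 306, 769 and 1852 (lowest, median, highest) for A_73_P080061 and 141, 424 and 934 for A_73_P271841, against at most 42.2 and 25.3 in Ladakhi. Both were called (adjusted p = 0.0015 and 0.031, limma), but their Sahiwal means of -3.80 and -4.75 lie under the Ladakhi detection limit, so no fold is given. With dim signals raised to that limit A_73_P080061 was no longer called (0.19, limma adjusted p = 0.65), and A_73_P271841 turned from -1.16 as fitted to 1.14 (limma adjusted p = 0.012). Within Sahiwal all 3 MCL1 probes were highest on array 6.

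BCL2A1, which encodes A1, gave different answers at its 2 probes. At the 3′-most probe, A_73_P037501, no Ladakhi array was above background, with signals of 14.9 to 62.2, against 620, 1305 and 3629 in Sahiwal (lowest, median, highest). Measured against the Ladakhi detection limit, the Sahiwal mean was at least 1.60-fold higher. Sahiwal arrays 4 and 5, at -3.95 and -3.93, lay under the mean of that limit. The call (limma adjusted p = 0.0038) belongs to the means as measured, -5.13 in Ladakhi and -2.93 in Sahiwal, and not to the bound. With dim signals raised to the detection limit, the fit that matches the bound, this call was lost (-0.68, limma adjusted p = 0.20). At the coding probe A_73_P208327 the levels were -3.58, -3.15, -2.66, -2.29 and -2.503 in Ladakhi, above background on the last 3, against -3.42, -2.63 and -0.34 in Sahiwal. These overlapped, and the difference of -0.52 (SE 0.49, limma adjusted p = 0.41) did not pass.

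BCL2 itself showed no difference beyond its spread. Its levels were -3.65, -3.48, -2.34, -1.81 and -2.15 in Ladakhi, above background on arrays 3 to 5, against a lowest of -3.64, a median of -2.55 and a highest of -2.25 in Sahiwal. The breeds overlapped over nearly their whole range, and the difference was 0.04 (95% interval -0.80 to 0.89, limma adjusted p = 0.94). The interval leaves room for a change of either sign.

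BCL2L1, the gene of BCL-XL, was seen on single Ladakhi arrays. At A_73_119599, the 3′-most probe, the levels were -3.89, -3.47, -1.96, -5.73 and -4.43 in Ladakhi, with array 3 alone above background, against -5.16, -3.80 and -3.02 in Sahiwal. The difference was -0.05 (95% interval -1.25 to 1.15, limma adjusted p = 0.95), but 4 of the 5 Ladakhi signals behind it were not above background and the Sahiwal mean of -3.85 lies under the Ladakhi limit, so no direction was read. With dim signals raised it was 0.70 (limma adjusted p = 0.13). The other 2 probes were untested. Both were above background on Ladakhi array 2, with signals of 554 (A_73_P330086) and 308 (A_73_P100546), and at or below 21.2 on the other Ladakhi arrays. In Sahiwal the first was on no array and the second on array 3, at a signal of 33.2.

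BAK1, one of the pore-forming pro-death members, was higher in Ladakhi at A_73_108349. Its levels were -1.98, -2.40, -1.68, -1.14 and -1.83 in Ladakhi, against -3.86, -2.97 and -2.70 in Sahiwal (lowest, median, highest). Every Ladakhi array lay above every Sahiwal array. The difference was 1.35 (SE 0.32, 95% interval 0.67 to 2.03, limma adjusted p = 0.0045), or 2.55-fold, and it stayed called with each single array left out (1.19 to 1.502). This probe is named BAK1 in the files through an accession that the RefSeq gene table used here does not list, unlike the other 18 member probes.

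The second BAK1 probe, A_73_P039561, was on no Ladakhi array and on 4 Sahiwal arrays, with signals of 20.9 to 120. Its Sahiwal mean of -7.51 lies far under the Ladakhi detection limit, so its call (limma adjusted p = 0.0037) has no direction. BAX, the other pore former, has a single probe and was on no Ladakhi array, with a highest signal of 38.4. In Sahiwal its signals were 177, 434 and 694 (lowest, median, highest). BAX was called (limma adjusted p = 0.034), again with a Sahiwal mean, -4.82, under the Ladakhi limit and no fold. Its fitted difference of -0.89 turned to 1.21 with dim signals raised (limma adjusted p = 0.0028).

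BAD, which binds and occupies BCL2 and BCL-XL, was the only member with 2 measured probes, and both pointed up in Ladakhi. At A_73_P284126 the levels were -2.47, -2.06, -2.29, -2.58 and -2.72 in Ladakhi, against -3.43, -3.33 and -2.88 in Sahiwal, without overlap. The difference was 0.83 (SE 0.25, 95% interval 0.30 to 1.36, limma adjusted p = 0.015), or 1.78-fold. Leaving out single arrays kept that call (0.74 to 0.91), and leaving out Sahiwal arrays 4 and 6 together did not (0.75, limma adjusted p = 0.065).

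At the other BAD probe, A_73_115032, which holds AATAAA, the levels were -1.10, -1.10, -1.15, -0.93 and -1.34 in Ladakhi, against -1.93, -1.39 and -1.01 in Sahiwal. The breeds overlapped and the difference of 0.32 (95% interval -0.24 to 0.87, limma adjusted p = 0.34) did not pass. It did pass under cyclic loess (0.77, limma adjusted p = 0.029; 0.35 once the median of measured probes is taken off) and with normexp background correction (0.65, 0.0047). The third BAD probe, A_73_P357136, was on no Ladakhi array and on 5 Sahiwal arrays, at signals of 57.2 to 134, and its call (limma adjusted p = 0.0081) has no direction.

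BID, which links death receptors to the mitochondrion once caspase 8 has cut it, was dim in both breeds. Its 3′-most probe, A_73_P040206, had levels of -5.59, -5.11, -4.19, -4.82 and -4.22 in Ladakhi, with array 3 alone above background, against -5.44, -4.94 and -4.59 in Sahiwal. The fitted difference was 0.21 (95% interval -0.45 to 0.87, limma adjusted p = 0.61), from which no direction was read, since the Sahiwal mean of -4.99 lies under the Ladakhi limit. It was called at 1.27 with normexp and at 1.3997 with dim signals raised (limma adjusted p = 2.6e-05 and 2.7e-04). The other 2 BID probes were on no Ladakhi array and on all 6 Sahiwal arrays, with highest Sahiwal signals of 348 and 189, and did not pass (adjusted p = 0.23 and 0.20, limma).

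BCL2L11, the gene of the activator BIM, varied widely within Sahiwal. The levels were -5.59, -4.20, -3.01, -2.997 and -3.41 in Ladakhi, above background on arrays 3 to 5, against -4.98, -3.89 and -1.16 in Sahiwal. The difference of -0.53 (95% interval -1.98 to 0.93, limma adjusted p = 0.56) lies well within the Sahiwal spread. It rests partly on Ladakhi signals not above background, as does the spread in Ladakhi.

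Set side by side, the pro-death genes had 3 measured probes of 10 with a median difference of 0.83, and the pro-survival genes 1 of 9, at -1.71. The median over all measured probes was -0.02, with 25th and 75th percentiles of -0.67 and 0.62. On at least 1 Ladakhi array 5 of 10 pro-death and 6 of 9 pro-survival probes were above background. The 5 probes seen on 1 to 3 Ladakhi arrays rest partly on signals not above background and were not used to set the roles against each other. What can be set side by side is MCL1 against BAK1 and BAD, and no score over the members was tested.

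**Figure D3:**
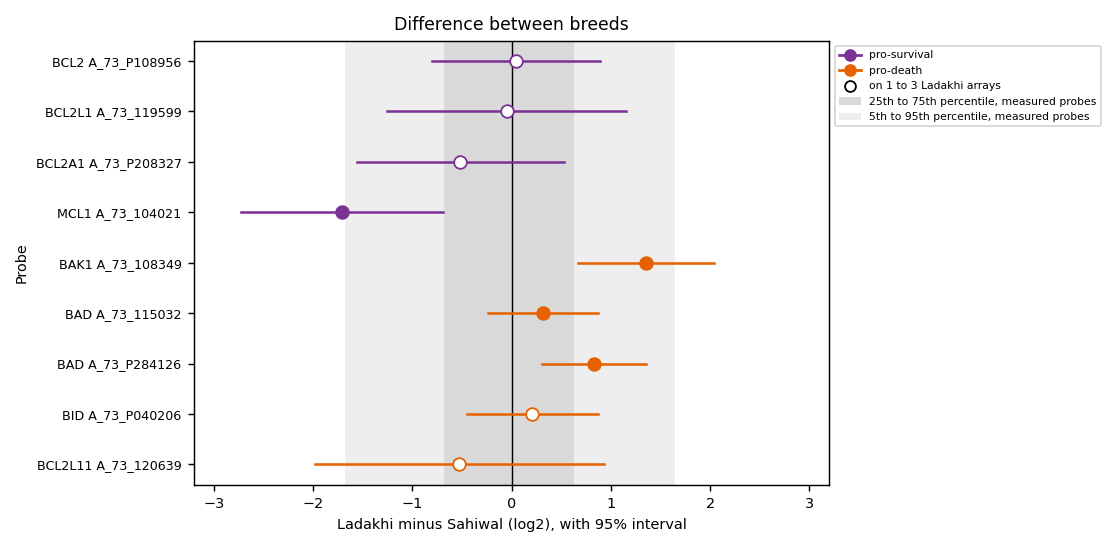
Ladakhi minus Sahiwal difference (log2, horizontal axis) with its 95% interval for the 9 member probes tested and seen on at least 1 Ladakhi array, filled where measured and open where on 1 to 3 Ladakhi arrays, so that some Ladakhi signals were not above background. Dark and light grey bands span the 25th to 75th and the 5th to 95th percentile of all measured probes; MCL1 at -1.71 lies past the light band, while BAK1 at 1.35 and BAD A_73_P284126 at 0.83 lie between the edges of the bands.

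Within Sahiwal, where 15 member probes were above background throughout, the pro-survival probes varied more between arrays than a typical probe. All 7 pro-survival probes had an SD above 0.46, the median over 15099 probes above background on all 6 Sahiwal arrays, as did 4 of 8 pro-death probes. The 7 probes stand for 4 genes and are not independent, and BCL2, with an SD of 0.56, was above 63.5% of probes only. The widest was BCL2L11, with a 14.1-fold range between arrays and an SD of 1.53, larger than that of 99.0% of those probes. BCL2A1 A_73_P208327 spanned 8.42-fold, with an SD of 1.13 (above 96.3% of probes by SD). MCL1 A_73_104021 spanned 5.07-fold over 5 arrays, with an SD of 1.15 (above 96.6% by SD). BAD A_73_P284126 had a 1.47-fold range and the smallest SD of the 15, at 0.21 (above 6.69% by SD).

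The arrays that were high differed from gene to gene. BCL2A1 and BCL2L11 were highest on Sahiwal arrays 2 and 3, and MCL1 on arrays 4 and 6, where BCL2L1 also had its 2 highest levels. BCL2 was highest on arrays 2 and 3 as well (-2.25 and -2.26), with array 1 close behind (-2.39). For BCL2L11 the unscaled signals on arrays 1 to 6 were 1198, 6061, 1976, 508, 301 and 595. For BCL2A1 A_73_P208327 they were 2579, 4054, 5089, 916, 1057 and 1571. Arrays 1 and 2 share one slide and arrays 3 to 6 another, so the high arrays of both genes lie on both slides.

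**Figure D4:**
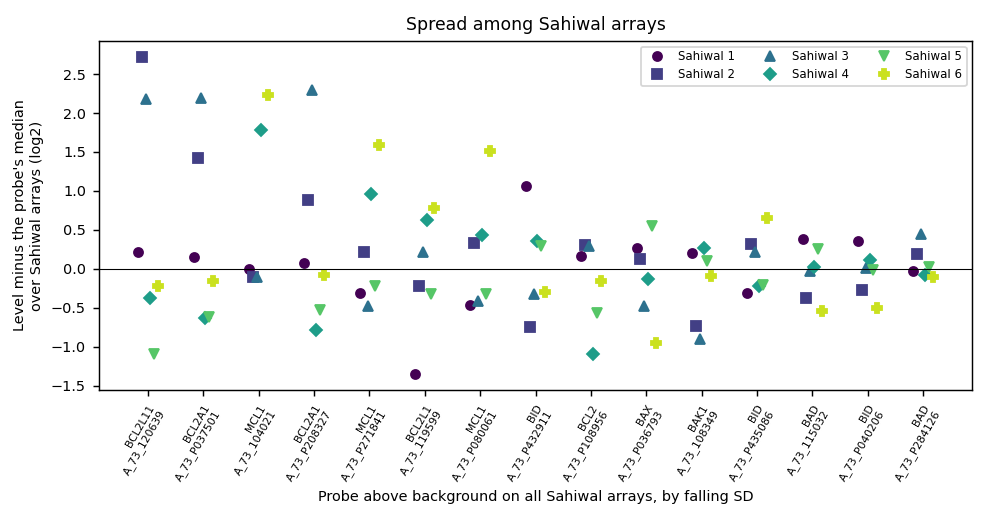
Level of each of the 15 member probes above background on all 6 Sahiwal arrays, minus its median over those arrays (log2, vertical axis), in order of falling SD, with a symbol for each array. BCL2L11 stands first with an SD of 1.53 and BAD A_73_P284126 last with a 1.47-fold range; MCL1 A_73_104021 shows 5 points, since 1 spot carries an outlier mark.

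No pair of members moved together across the Sahiwal arrays once the number of pairs was counted. With the brightest probe of each gene, 28 of 36 pairs could be tested over 6 arrays (MCL1 had 5 values), and 0 had an adjusted p under 0.05 in exact permutation tests, both directions, with 4 under 0.05 unadjusted. The smallest p that 6 arrays allow is 0.00139. BAD and BID gave Pearson r = 0.93 (exact permutation p = 0.011, adjusted 0.16; Spearman rho 0.83, p = 0.058, adjusted 0.27). BCL2A1 and BAK1 gave r = -0.91 (exact permutation p = 0.011, adjusted 0.16; rho -0.83, p = 0.058, adjusted 0.27), and r was -0.43 without the 2 arrays farthest from the BCL2A1 median, so that relation rests on those arrays. For BAD and BID r was 0.75 after the same step. BCL2A1 and BCL2L11, both highest on the same arrays, gave r = 0.84 (exact permutation p = 0.031, adjusted 0.29; rho 0.89, p = 0.033, adjusted 0.23) and 0.66 after it. BCL2, highest on those arrays too, gave r = 0.78 with BCL2A1 and 0.75 with BCL2L11 (exact permutation p = 0.053 and 0.093, adjusted 0.30 and 0.35). In both of these pairs rho was 0.94, the largest of the pairs tested (exact permutation p = 0.017, adjusted 0.23). The correlation was not computed over the 5 Ladakhi arrays.

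Genes that act around the family were taken from 5 lists of 63 genes, chosen with earlier results of these data known and each read by its brightest tested probe. Of these, 50 were tested and 20 measured. Over all 4048 measured probes 18.2% were called higher and 14.5% lower, and the counts here and by list, all small, stand beside these shares. Of the measured listed genes 1 was higher and 3 were lower in Ladakhi, with a median difference of -0.25. RIPK1, the kinase of TNF receptor signalling, was the higher one, at -1.98 ± 0.23 in Ladakhi (SD, n = 5) and -3.29 ± 0.25 in Sahiwal (SD, n = 6), a difference of 1.31 (SE 0.25, limma adjusted p = 0.0012). It was called in all 24 alternatives run, each single array left out among them.

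The lower genes included the pair of mitochondrial proteins that are released with cytochrome c and neutralise inhibitors of apoptosis. HTRA2 averaged -1.59 ± 0.06 in Ladakhi and -0.77 ± 0.29 in Sahiwal (SD, n = 5 and 6), a difference of -0.82 (limma adjusted p = 0.015). DIABLO averaged -2.72 ± 0.41 in Ladakhi and -1.92 ± 0.19 in Sahiwal (SD, n = 5 and 6), a difference of -0.80 (limma adjusted p = 0.025). BCL2L15, a further member of the BCL2 family, averaged -2.54 ± 0.58 in Ladakhi and -1.19 ± 0.88 in Sahiwal (SD, n = 5 and 6), at -1.35 (limma adjusted p = 0.021). DIABLO lost its call without Ladakhi array 1 (-0.68, adjusted p = 0.067, limma), Ladakhi array 2 (-0.74, 0.052) or Sahiwal array 1 (-0.77, 0.051), and BCL2L15 without Ladakhi array 2 (-1.11, 0.058). Under cyclic loess all 3 were no longer called, with HTRA2 at -0.37, DIABLO at -0.36 and BCL2L15 at -0.90 (adjusted p = 0.23, 0.34 and 0.16, limma). DIABLO and BCL2L15 were not called under quantile normalization either (-0.52 and -1.07, limma adjusted p = 0.081 and 0.070).

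By list, the relatives of the family had 0 higher and 1 lower of 4 measured genes, where NOXA (PMAIP1), a BH3-only partner of MCL1, lay at -0.68 (limma adjusted p = 0.41). The apoptosome and executioner list had 0 higher and 2 lower of 4, with endonuclease G (ENDOG) at 0.50 (limma adjusted p = 0.20). The inhibitors of apoptosis had no call by limma among 2, BIRC3 at 0.53 and TMBIM6 at -0.77 (limma adjusted p = 0.25 and 0.14), and both 95% intervals held 0. The death receptor list had 1 higher and 0 lower of 2, with the adaptor TRADD at -1.03 (limma adjusted p = 0.077). The regulators of members had no call by limma among 8, from -0.66 for YWHAQ, a 14-3-3 protein of the group that binds phosphorylated BAD, to 0.76 for MDM2, and all 8 intervals held 0. A further 11 genes were above background on 1 to 3 Ladakhi arrays, of which 2 were higher and 4 lower, where the background was 12.3% and 26.4%.

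Of those 6 genes, 2 stayed lower when dim signals were raised to each array's detection limit. PIM1, a kinase that phosphorylates BAD, was on 3 Ladakhi arrays and had signals of 48.3, 168, 519, 14.9 and 118 in Ladakhi, against 3948 to 40465 in Sahiwal. Its difference was -3.60 and, with raised signals, -2.91 (limma adjusted p = 8.6e-04 and 1.0e-05). BNIP3L, a mitophagy receptor related to the BH3-only proteins, was on 1 Ladakhi array and lay at -2.68 and, with raised signals, at -1.04 (limma adjusted p = 0.0011 and 0.0081). The other lower genes were CASP6 and TNFRSF1A, and the genes named here were chosen after their values were seen. TNFRSF10D, called as higher, had a Sahiwal mean of -4.50, under the Ladakhi limit, so its direction was not read.

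**Figure D5:**
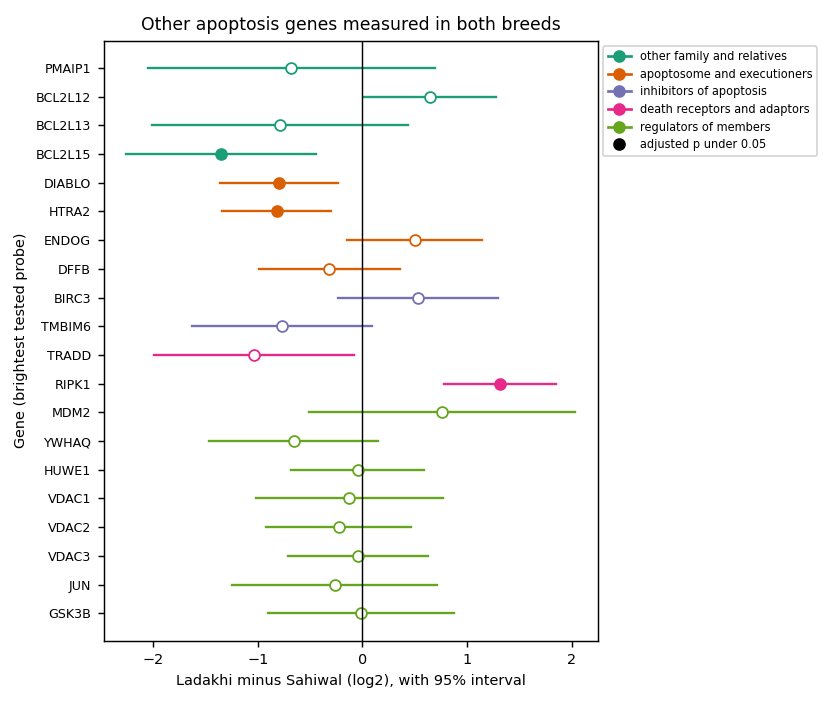
Ladakhi minus Sahiwal difference (log2, horizontal axis) with its 95% interval for the 20 listed apoptosis genes measured in both breeds, coloured by list and filled where the limma adjusted p was under 0.05. RIPK1 at 1.31 is the one filled point to the right of 0, and BCL2L15, DIABLO and HTRA2 are filled to the left.

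The arrays carried the markers of PBMCs, at levels that moved with breed. The T cell list (7 markers with a probe, 3 above background on at least 4 Ladakhi arrays) summed to 282 to 673% of the scaling signal in Ladakhi and 149 to 380% in Sahiwal. The NK list (2 of 6 on at least 4 Ladakhi arrays) summed to 204 to 343% and 29.0 to 112%, and the B cell list (3 of 6) to 232 to 303% and 124 to 259%. Monocyte markers (2 of 7) ran the other way, at 86.7 to 422% in Ladakhi and 306 to 827% in Sahiwal, with LYZ at -1.80 (limma adjusted p = 0.0054). FCN1, on 3 Ladakhi arrays, lay at -3.30 (limma adjusted p = 0.019). CSF1R, measured in both breeds, did not differ (-0.07, limma adjusted p = 0.89). CD14, CD68 and VCAN were not called either (-1.05, -0.97 and 0.84, limma adjusted p = 0.087, 0.12 and 0.12). The sum thus does not show a fall of the whole monocyte list. Single markers of a list did not all go one way. Among T cell genes CD247 lay at 0.97 and CD2 at 2.46 (adjusted p = 0.035 and 8.3e-05, limma), but CD3E and CD3G, on 2 and 3 Ladakhi arrays, were called lower at -2.45 and -1.83 (adjusted p = 0.024 and 0.013, limma). Among B cell genes BLK lay at 1.08 and CD79A at -0.11 (adjusted p = 0.0062 and 0.80, limma), and among NK genes GNLY lay at 1.70 and NKG7 at 1.17 (0.016 and 0.072). Of the neutrophil markers 7 of 8 were on no Ladakhi array, CSF3R and LTF among them, which were on 6 and 5 Sahiwal arrays. Red cell markers summed to 35.2 to 58.0% and 8.10 to 163%, and platelet markers to 174 to 237% and 25.02 to 441%. HBB, HBA, PF4 and PPBP did not pass the test (-0.61, 0.65, 0.39 and -0.59). Between breeds, MCL1 had the direction of the summed monocyte list, and BAK1 and BAD that of the summed T, B and NK cell lists. Within breeds no correlation with these sums was computed. On Ladakhi arrays 1 to 5 the monocyte sums were 92.2, 225, 215, 86.7 and 422%. Their order was the reverse of that of the MCL1 levels, with MCL1 lowest on array 5 (-2.84). On Sahiwal array 6 MCL1 and the monocyte sum were both highest (0.64 and 827%). BAK1 and the NK sum were both lowest on Ladakhi array 2 (-2.40 and 204%). Among Sahiwal arrays BAK1 was highest on array 4 (-2.70), where the NK sum was lowest (29.0%). The T cell list has called genes in both directions. The part of cell make-up in these differences was not tested.

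For each measured member the genes with the most alike pattern were found by Pearson r over all arrays with the breed means taken out, as a description of these arrays. MCL1 was closest to BUD31 (r = 0.98) and BASP1 (0.96) over 10 arrays. BAK1 was closest to PON2 (r = 0.93) and ADCY7 (0.89), BAD A_73_115032 to SLC52A2 (0.90) and PAIP2 (0.88), and BAD A_73_P284126 to KLF13 (0.93) and PPP1R16B (0.86), over 11 arrays. These were the highest of 3908 to 3910 measured probes compared, and the arrays of a comparison share their scaling and scanner.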

How the data were processed

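The deposited intensity values are Cy3 signals of 11 arrays. Per the file headers they come from Feature Extraction (12.0.1.1 for Ladakhi, 9.5.3.1 for Sahiwal), after background subtraction and detrending, and dim spots hold a surrogate. A deposited log2 table, made by the authors and centred per probe, runs in the direction of the scanner values, and how it was scaled between arrays is unknown. Its columns each correlated best (r at least 0.997) with a differently numbered array of that breed, so it served only as an alternative. The medians of its columns were 1.60 to 2.31 (Ladakhi) and -0.73 to 0 (Sahiwal).

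Controls were dropped, outlier spots set missing and repeated spots averaged. Because most probes were not detected in Ladakhi, the level is log2 of the processed signal minus each array's 75th percentile of it over the 2705 probes detected on all arrays. The 17866 probes that 4 or more arrays of one breed showed well above background were compared with limma 3.58.1 in R 4.3.3 (lmFit, eBayes, both directions, Benjamini-Hochberg over all of them, threshold 0.05), tested on simulated data first. A bound sets the Sahiwal mean against the mean, per Ladakhi array, of the higher of the detection limit and the probe's own signal. The number of arrays limits precision. Of 19 member probes 18 matched RefSeq by accession (ARS-UCD2.0, names only).

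The members and lists were chosen with earlier results of these data known. All member probes are reported. The rule named, per pathway list, up to 3 changed measured genes with the largest difference, the 2 brightest markers per cell type and the 2 genes most alike to each measured member, and other genes were named after their values were seen. The values of 1 listed pathway gene are not reported here. Alternatives covered scaling, background correction (normexp, offset 50, on the median signal), filter, dim, outlier and saturated spots, slide, array number, the deposited table and each array left out.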

Additional observations from a re-analysis of the deposited data

Results flagged for a closer look

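Ladakhi array 2 stood apart from the other Ladakhi arrays at a pair of BCL2L1 probes. At BCL2L1 A_73_P330086 its level was -0.89, with the nearest other Ladakhi array at -5.59. At BCL2L1 A_73_P100546 its level was -1.74, with the nearest again at -5.59. Both probes were above background on no other Ladakhi array, and the array was not above background at the third BCL2L1 probe, where its level was -3.47. The gap to the nearest array took 0.828 and 0.798 of the whole range of the 5 arrays. In all, 29 groups of arrays were examined in this way and 2 stood out, and chance alone gives about 1 in 20.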

How the results depend on the processing

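BAK1 kept its call in all 24 alternatives (1.19 to 1.79). MCL1 lost its call under cyclic loess (-1.29) and without Sahiwal arrays 4 and 6 (-0.88), an alternative chosen after seeing the data that left 1 of the 3 measured member calls and 2 of the 4 pathway calls. Cyclic loess gave 3725 changed probes in place of 7476 and 5 member probes in place of 9. Normexp gave 13478 changed probes, 2043 measured ones in place of 1324, and 9 pathway genes. Without a filter 34473 probes changed, with detection on 4 arrays of each breed 1327 (3 of them member probes), and with dim signals raised 12515. The share of measured calls that were higher was 55.6%, and 75.8, 86.2 and 70.8% under quantile, cyclic loess and normexp, which moved the median of measured probes to 0.18, 0.42 and 0.27. Uncalled members changed sign or gained a call. BID A_73_P040206 was -0.18 under quantile, and was called at 1.27 under normexp and 1.3997 with dim signals raised. BCL2L1 A_73_119599 was 0.31 under cyclic loess, 1.08 under normexp (limma adjusted p = 0.0089), 0.70 with dim signals raised and 0.33 without Sahiwal arrays 4 and 6. BCL2L11 was 0.76 under normexp and 0.17 with dim signals raised, and BCL2 was -0.18 without those 2 arrays. Leaving out single arrays gave -0.17 to 0.28 for BCL2 and -0.53 to 0.41 for BCL2L1 A_73_119599. It gave 6454 to 7491 changed probes, 7 to 9 member probes, 3 measured member probes throughout and 3 to 5 pathway genes. The cause of these moves was not tested. With array number as a replicate block 7 member probes, 2 measured ones and 2 pathway genes were called, BAD A_73_P284126 was 0.80 (limma adjusted p = 0.067) BCL2L1 A_73_119599 was 0.12, and HTRA2 (-0.86) and DIABLO (-0.77) were no longer called (limma adjusted p = 0.054 and 0.093). Without Sahiwal arrays 4 and 6 DIABLO (-0.75) and BCL2L15 (-0.85) lost their calls. Same-numbered arrays deviated with correlations of -0.07 to 0.05, and 0 of 5 Ladakhi arrays matched their own number best, so the numbers do not pair them. The dim Ladakhi signal limits what could be compared.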
